A study of Mus musculus with 12 samples.

Results

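The comparison sets cells sorted for both of a pair of fluorescent heart reporters against cells sorted for neither. It uses 6 of the 12 arrays of the series, chosen by their sample titles: the 3 double-positive arrays and the 3 double-negative arrays of experiments A, B and C. All of the cells came from mouse embryonic stem cells differentiated as hanging drops and dissociated from embryoid bodies on day 6. The stem cells carried a dsRed reporter specific to the second heart field and an eGFP reporter driven by an enhancer specific to cardiac cells, and all populations were sorted from such cells. Double-positive cells had both signals, and double-negative cells are every sorted cell with neither signal, a mixture defined by absence. Red-only and green-only cells, the other two populations, enter the model and a few described levels. The labels name neither the stem cell line nor a clone, and they do not say whether the letters are separate cultures. The p-values therefore measure only the spread between arrays of a population, pooled over all 12 arrays, which may be technical.

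Heart muscle forms from mesoderm progenitors of the first and second heart fields, which express Nkx2-5, Mef2c and Isl1 and then switch on the sarcomere, the repeating unit in which myosin thick filaments pull on actin thin filaments. A stem cell that differentiates shuts down the network of Pou5f1, Sox2 and Nanog, and an epithelial cell that becomes mesoderm gives up E-cadherin, the product of Cdh1. Embryoid bodies also hold other derivatives at this stage, among them primitive red blood cells with embryonic globins, endothelium and endoderm.

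Values are given in intensity units of a probe set, on a linear scale. A log2 difference is that of double-positive minus double-negative cells on the scale log2(intensity + 4.10), so differences of dim genes are understated. Its standard error (SE) and its p-value come from limma without pairing by experiment, with Benjamini-Hochberg adjustment over all genes tested. The spread behind them is pooled over all 12 arrays, so a deviating red-only or green-only array widens the SE. Cdh1, for example, read 122, 39.0 and 39.5 on green-only arrays A, B and C, and Foxa2 84.9, 18.4 and 25.3. A gene past 0.05 is called higher or lower. Where 3 values are listed they are those of experiments A, B and C in that order, and means are given ± SD with n = 3 arrays. A probe set's level is not comparable with that of another probe set, so levels are compared within a gene or as sums of the same probe sets on each array. Such sums over markers are set mostly by their brightest probe sets. For endothelium that is Kdr, with means of 145 on double-positive and 108 on double-negative arrays, and for neural cells Nes, with 111 and 109. Values are those of the brightest probe set of each gene, and other probe sets of a gene can differ. Of 88 called genes named here with several probe sets tested, 55 had one whose log2 difference was more than 1.5 times smaller, and 28 had one that did not pass or had the opposite sign, namely Bub1, Cbx1, Cbx7, Ddx18, Epcam, Esrrg, Fgfr1, Gata6, Hdac9, Heatr1, Idh2, Itgav, Itgb3, Mbd2, Mycl, Notch2, Notch3, Pkp2, Plagl1, Ptch1, Sh3bgr, Slc25a4, Smad1, Smyd1, Sox17, Tet1, Tgfb2 and Utf1.

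The 4 genes that mark the comparison are described first. They are no independent check of the labels or sorts. Tnnt2, the gene of cardiac troponin T, read 2214, 1609 and 1659 intensity units on the double-positive arrays and 28.5, 15.2 and 21.1 on the double-negative arrays, with a log2 difference of 6.17 ± 0.20 SE and an adjusted p of 7.56e-10. Myh6, the alpha myosin heavy chain gene of the heart, read 1222, 849 and 713 intensity units on the double-positive arrays and 13.3, 10.7 and 10.4 on the double-negative arrays (log2 difference 5.87 ± 0.26 SE, adjusted p = 8.03e-09). Pou5f1, the gene of the pluripotency factor Oct4, read 21.8, 11.9 and 19.5 intensity units on the double-positive arrays and 408, 456 and 329 on the double-negative arrays (log2 difference -4.22 ± 0.23 SE, adjusted p = 3.05e-08). The double-positive arrays lay wholly above the double-negative arrays for Tnnt2 and Myh6 and wholly below them for Pou5f1. Hbb-bh1, an embryonic beta-like globin gene, read 18.5, 12.9 and 48.3 intensity units on the double-positive arrays and 578, 653 and 1149 on the double-negative arrays (log2 difference -4.81 ± 0.45 SE, adjusted p = 4.07e-06). Its double-negative arrays differed among themselves, with experiment C highest, yet the lowest of them lay above all double-positive arrays. Summed over 6 cardiomyocyte markers, of which 5 were called higher against 13.9% of all genes tested, the intensity was 5395 to 8732 on the double-positive and 87.5 to 133 on the double-negative arrays. Bulk arrays cannot tell fewer cells of a type from less RNA per cell, here and in all comparisons that follow.

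Nkx2-5, Mef2c and Isl1 belong to the heart fields that the reporters were designed to mark, so their levels are linked to the sort. Nkx2-5 read 369.7, 452 and 425 intensity units on the double-positive arrays and 37.9, 31.6 and 37.00 on the double-negative arrays (log2 difference 3.40 ± 0.15 SE, adjusted p = 8.14e-09). Mef2c read 439, 487 and 447 intensity units on the double-positive arrays and 13.9, 25.2 and 25.7 on the double-negative arrays (log2 difference 4.20 ± 0.22 SE, adjusted p = 2.14e-08). Isl1 read 76.5, 88.6 and 95.1 intensity units on the double-positive arrays and 44.3, 35.7 and 53.6 on the double-negative arrays (log2 difference 0.91 ± 0.13 SE, adjusted p = 0.000114). All 3 had higher double-positive arrays with no overlap, and Isl1 differed least.

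Of 13698 genes tested, 4317 (31.5%) differed between double-positive and double-negative cells, 1906 (13.9%) higher and 2411 (17.6%) lower. More genes were lower, but more of the large changes were higher. On the scale with the pseudocount, past 4-fold there were 134 called genes higher and 60 lower, past 16-fold 30 and 3, and past 32-fold 12 and 0. Without the pseudocount, from means of log2 intensity, the same called genes gave 167 and 90, 38 and 9, and 17 and 2. The 9 genes past 16-fold lower without it were Hbb-y, Hbb-bh1, Pou5f1, L1td1, Hba-x, Cdh1, Dppa5a, Epcam and Sox2, of which Hbb-bh1, Hbb-y and Pou5f1 are past it on both scales, while 13 of the 15 largest increases were genes of the sarcomere lists. Arrays of one population correlated at 0.991 to 0.995 across genes and arrays of different populations at 0.924 to 0.940, and genes are not independent replicates. Among the called genes the arrays did not overlap for 1869 of the 1906 and for 2376 of the 2411, against 1869 of the 9381 genes not called. The 15 largest changes on each side were chosen among genes without overlap, so its absence is no result for them. The count of genes higher fell to 1231 without experiment B, and that of genes lower to 1402 without experiment C.

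**Figure D1:**
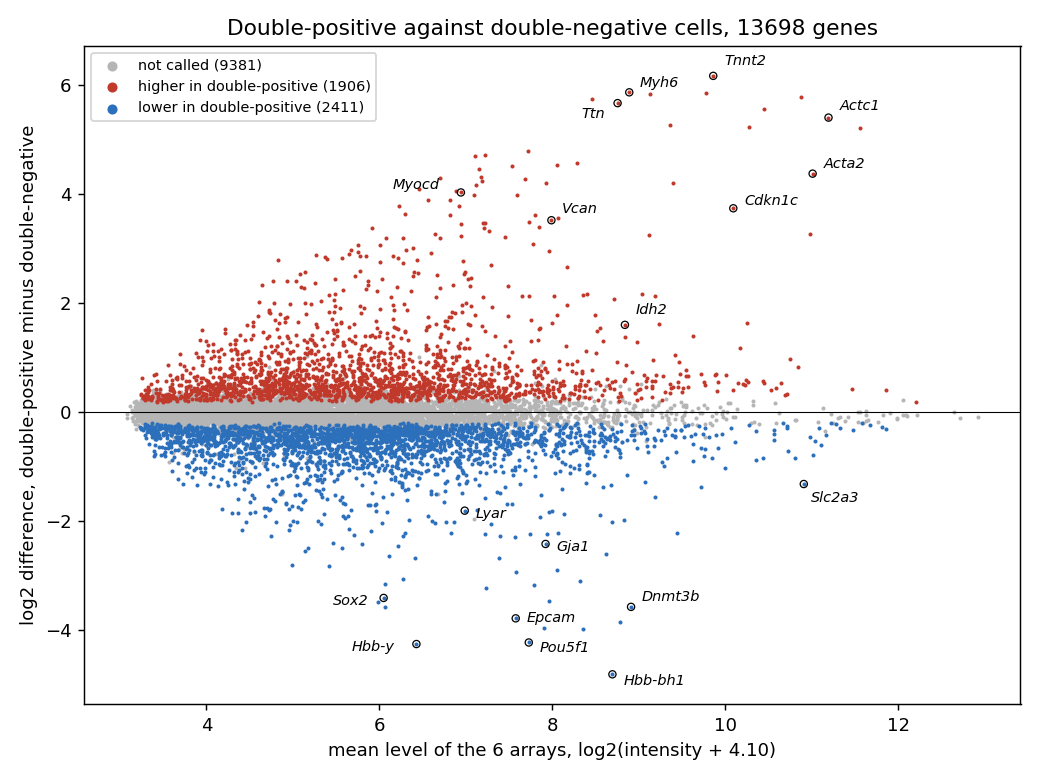
Each point is a gene, with its mean level over the 6 arrays on the horizontal axis, as log2(intensity + 4.10), and its log2 difference between double-positive and double-negative cells on the vertical axis. The 1906 genes called higher reach a difference of 6.17 (Tnnt2) and the 2411 called lower reach -4.81 (Hbb-bh1), and among dim genes at the left few pass the threshold.

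A control of RNA integrity moved with the groups. The ratio of 3' to 5' signal of the actin control was 1.55, 1.47 and 1.40 on the double-positive arrays and 1.36, 1.36 and 1.34 on the double-negative arrays, which do not overlap. The same ratio of the Gapdh control was 0.95, 0.94 and 0.95 against 0.97, 0.95 and 0.91, and these overlap. Double-positive A also had the highest 18S control intensity of the 6 arrays, at 793.5. The part of RNA quality in the differences below was not tested. Of 29 immediate early and stress genes tested, 9 were called higher (31.0%) and 1 lower (3.45%), against 13.9% and 17.6% of all genes tested. With the experiment as a replicate block 17 were higher. The leading members were the small heat shock genes Hspb7 (3.78) and Hspb2 (3.48), which are expressed in striated muscle, followed by the immediate early genes Fosb (1.88) and Fos (1.63).

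The largest changes on each side are shown with the promoters of 3 genes that were higher and 3 that were lower, taken from RefSeq on build GRCm38.p6. They are the largest changes with an entry in that table, in which Hbb-bh1 and Dppa5a have none, and each covers 250 bases before to 50 after the annotated start, written 5′ to 3′ on the gene's own strand. Capitals mark any match to the motifs searched. Tnnt2, Myh6 and Myl3 code for a troponin and 2 myosin chains of heart muscle, Hbb-y and Hba-x for embryonic globins, and Pou5f1 for Oct4.
Tnnt2 promoter, chr1:135836084-135836383, plus strand: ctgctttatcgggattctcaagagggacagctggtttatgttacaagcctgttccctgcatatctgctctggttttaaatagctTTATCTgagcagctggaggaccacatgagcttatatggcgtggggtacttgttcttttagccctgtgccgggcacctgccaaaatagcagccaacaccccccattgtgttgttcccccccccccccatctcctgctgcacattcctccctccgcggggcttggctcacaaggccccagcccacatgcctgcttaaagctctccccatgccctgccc
Myh6 promoter, chr14:54966558-54966857, minus strand: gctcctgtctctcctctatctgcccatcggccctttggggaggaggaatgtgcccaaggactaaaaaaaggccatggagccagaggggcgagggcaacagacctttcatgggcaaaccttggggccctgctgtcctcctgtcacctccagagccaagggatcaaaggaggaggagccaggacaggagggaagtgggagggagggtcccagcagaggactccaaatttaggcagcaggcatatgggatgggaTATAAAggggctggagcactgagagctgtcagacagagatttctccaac
Myl3 promoter, chr9:110763428-110763727, plus strand: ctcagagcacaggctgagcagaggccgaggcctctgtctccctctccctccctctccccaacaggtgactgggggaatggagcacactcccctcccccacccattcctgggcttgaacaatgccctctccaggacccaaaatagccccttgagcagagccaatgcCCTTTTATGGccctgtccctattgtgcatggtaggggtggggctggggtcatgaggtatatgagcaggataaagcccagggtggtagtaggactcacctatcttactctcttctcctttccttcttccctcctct
Hbb-y promoter, chr7:103853158-103853457, minus strand: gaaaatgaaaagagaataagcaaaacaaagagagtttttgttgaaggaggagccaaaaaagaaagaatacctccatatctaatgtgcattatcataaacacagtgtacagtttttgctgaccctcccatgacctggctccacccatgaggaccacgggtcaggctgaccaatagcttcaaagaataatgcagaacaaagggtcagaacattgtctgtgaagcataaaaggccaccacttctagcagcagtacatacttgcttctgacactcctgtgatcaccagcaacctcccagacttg
Pou5f1 promoter, chr17:35505782-35506081, plus strand: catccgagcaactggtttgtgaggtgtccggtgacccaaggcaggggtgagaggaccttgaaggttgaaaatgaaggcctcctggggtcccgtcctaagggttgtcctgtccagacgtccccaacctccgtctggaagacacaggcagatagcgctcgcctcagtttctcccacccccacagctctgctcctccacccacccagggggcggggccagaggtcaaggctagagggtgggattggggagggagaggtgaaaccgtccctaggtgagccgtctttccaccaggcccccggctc
Hba-x promoter, chr11:32276350-32276649, plus strand: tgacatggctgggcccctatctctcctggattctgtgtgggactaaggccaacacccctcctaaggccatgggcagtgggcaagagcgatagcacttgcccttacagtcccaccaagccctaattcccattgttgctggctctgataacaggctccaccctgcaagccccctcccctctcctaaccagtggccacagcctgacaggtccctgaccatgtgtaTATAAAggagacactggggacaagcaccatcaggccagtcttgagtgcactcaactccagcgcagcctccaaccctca
The capitals in the Tnnt2 window are a match to AGATAA, the core of a GATA factor site, on the opposite strand, 166 bases before the start. Those in Myh6 and Hba-x are TATAAA, the letters of a core promoter element, at base 2 after the annotated start in Myh6 and 28 bases before it in Hba-x. Those in Myl3 are a CArG box, the site of serum response factor, 85 bases before the start. No match was found in the Hbb-y and Pou5f1 windows, which says only that these letters are not there.

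Motifs were counted on both strands in the windows of the 100 largest increases and 100 largest decreases, of which 79 and 77 had an entry, beside 10990 windows of genes tested and all 27025 windows. CArG boxes stood in 7.59% of the windows of increases, 0 of those of decreases, 1.36% of those of genes tested and 1.57% of all windows. MEF2 sites stood in 8.86% of the windows of increases, 0 of those of decreases, 1.70% of those of genes tested and 3.26% of all windows. A window with both a CArG box and a MEF2 site counts in both shares. AGATAA was found in 16.5% of the windows of increases, 3.90% of those of decreases, 6.87% of those of genes tested and 11.4% of all windows. Over all 1551 windows of genes called higher, AGATAA stood in 6.19%, CArG boxes in 2.26% and MEF2 sites in 2.77%. Over the 1963 windows of genes called lower these shares were 5.71%, 1.12% and 1.53%. TATAAA was found in 12.7% of the windows of increases, 12.99% of those of decreases, 7.83% of those of genes tested and 14.2% of all windows. The 2 backgrounds differ, and the share of TATAAA in both sets lay above that of genes tested and below that of all windows. The NKX2 motif TNAAGTG stood in 6.33% of the windows of increases, 10.4% of those of decreases, 8.95% of those of genes tested and 11.5% of all windows. The octamer ATGCAAAT, bound by Oct4, was found in 0 of the windows of increases, 2.60% of those of decreases, 1.37% of those of genes tested and 1.75% of all windows. The median ratio of observed to expected CpG was 0.379 for increases, 0.615 for decreases, 0.736 for genes tested and 0.389 for all windows. The shares of the largest increases and decreases rest on 0 to 13 windows per motif. All shares describe sequence only, and no test was made.

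Sarcomere genes were among the largest increases. All 10 tested genes of the myosin thick filament were higher, against 13.9% of all genes tested, with a median log2 difference of 5.39, against -0.0084 over all genes tested. Besides Myh6 these were led by the light chains Myl3 (5.85), Myl2 (5.84) and Myl4 (5.78) and the beta heavy chain Myh7 (5.56). Other probe sets were called higher by less, at 1.55 for Myh6, 0.41 for Myl4 and 4.49 to 4.98 for Myl3. The median of the list was 4.14 when all probe sets of a gene were averaged. Ventricular and atrial members both rose. Myl2, the ventricular regulatory light chain, read 1230.2, 1194 and 864 intensity units on the double-positive arrays and 18.8, 11.00 and 15.6 on the double-negative arrays. Myl7, its atrial counterpart, read 6442, 5386 and 5699 intensity units on the double-positive arrays and 185, 129.6 and 149 on the double-negative arrays (log2 difference 5.21 ± 0.17 SE, adjusted p = 7.56e-10). Both kinds of light chain were on every double-positive array above every double-negative array. Of 11 genes of the thin filament, 10 were higher (median 3.27), led after Tnnt2 by Actc1 (5.41), Tnnc1 (5.28) and Tnni1 (5.23), which code for cardiac actin, troponin C and the slow, fetal form of troponin I. The gene Tmod1 (3.49), which caps the pointed end of the actin filament, followed.

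The scaffold of the sarcomere was higher as well. Ttn, the giant spring titin, read 891, 1042 and 595 intensity units on the double-positive arrays and 12.8, 11.5 and 11.97 on the double-negative arrays (log2 difference 5.67 ± 0.25 SE, adjusted p = 7.75e-09). Of 20 titin, Z-disc and M-band genes, 19 were higher (median 3.04). The largest after Ttn were Myom1 (4.72), Unc45b (4.70), Csrp3 (4.52) and Actn2 (4.47), which code for an M-band protein, a chaperone that folds myosin, a Z-disc LIM protein and alpha-actinin. Actn2 read 430.4, 172 and 205 intensity units on the double-positive arrays and 7.76, 7.46 and 6.72 on the double-negative arrays (log2 difference 4.47 ± 0.29 SE, adjusted p = 1.32e-07), and its double-positive array A was well above B and C. Outside the lists, Sh3bgr (5.75) and Asb2 (4.79) stood among the 15 largest increases, though another probe set of Sh3bgr lay at 0.18 and did not pass. Asb2 is the substrate-binding subunit of a ubiquitin ligase of muscle and blood cells, and it read 495, 353 and 359.9 against 8.38, 11.9 and 11.3. The probe sets of Tnnt2, Myl3, Ttn and Tnni1 are of types whose probes may match several transcripts, as are others, such as those of Acta2 and Hbb-y. The signal of other transcripts in them was not tested.

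**Figure D2:**
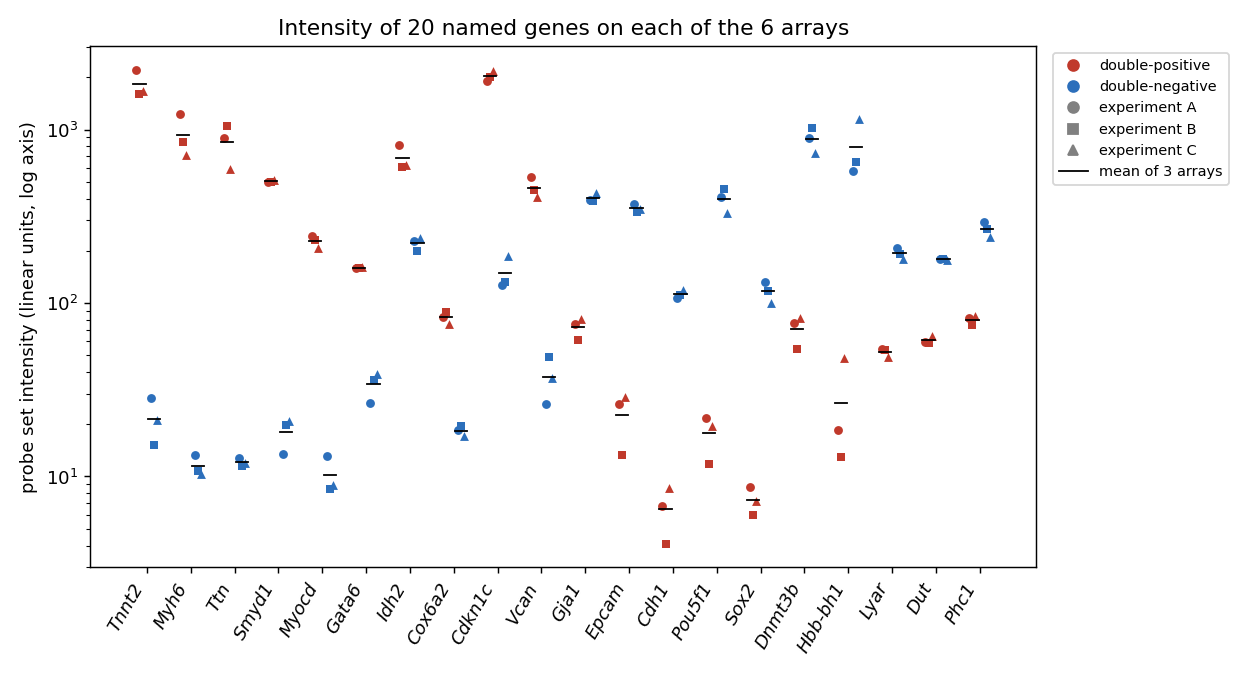
Intensity of 20 genes named in the text on each of the 6 arrays, in linear units on a log axis, with a colour for each population, a symbol for each experiment and a line at the arithmetic mean of 3 arrays. For every gene drawn the 3 arrays of one population lie apart from the 3 of the other, for example Smyd1 at 498 to 512 against 13.5 to 20.9 and Cdh1 at 4.09 to 8.61 against 106 to 119.

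Of 26 cardiac transcription factors and cofactors tested, 20 were higher and 0 lower (0 at an unadjusted p under 0.05) in double-positive cells, with a median of 1.27. Smyd1, a muscle histone methyltransferase needed for myofibril assembly, read 498, 501 and 512 intensity units on the double-positive arrays and 13.5, 19.8 and 20.9 on the double-negative arrays (log2 difference 4.54 ± 0.20 SE, adjusted p = 7.01e-09). Its 3 double-positive values were nearly equal and far above the others, while another of its probe sets lay at -0.0027. Myocd, the coactivator of serum response factor, read 244, 231 and 208 intensity units on the double-positive arrays and 13.1, 8.44 and 8.94 on the double-negative arrays (log2 difference 4.03 ± 0.11 SE, adjusted p = 3.93e-10), the smallest adjusted p among genes that were higher, shared with Tnni1. Smarcd3, the subunit Baf60c that couples chromatin remodelling to heart factors, read 439, 432 and 346 intensity units on the double-positive arrays and 21.98, 28.5 and 39.1 on the double-negative arrays (log2 difference 3.62 ± 0.16 SE, adjusted p = 8.72e-09). Neither gene had overlapping arrays. Gata6, a GATA factor of heart and endoderm, read 159, 159 and 162 intensity units on the double-positive arrays and 26.6, 36.1 and 39.00 on the double-negative arrays (log2 difference 2.13 ± 0.14 SE, adjusted p = 2.10e-07), and its relative Gata4 was higher by 1.54. Another probe set of Gata6 lay at 0.19 and did not pass. Among the 6 members not called were Hand1 and the T-box gene Tbx5, both known from the first heart field and named because of their values. Hand1 averaged 56.03 ± 2.97 against 50.5 ± 11.9 (log2 difference 0.16, 95% interval -0.20 to 0.53). Tbx5 averaged 22.9 ± 1.67 against 20.7 ± 1.12 on the probe set used (log2 difference 0.12, 95% interval -0.075 to 0.31), while another of its probe sets was higher by 0.36 (adjusted p = 0.0419). The median of the list was 0.83 when all probe sets of a gene were averaged.

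Genes that link excitation to contraction differed less evenly. Of 22 calcium cycling and excitation genes, 14 were higher and 1 lower, with a median of 0.48. Jph2, which ties the sarcoplasmic reticulum to the cell surface, read 384, 256 and 299 intensity units on the double-positive arrays and 28.4, 30.1 and 30.4 on the double-negative arrays (log2 difference 3.21 ± 0.16 SE, adjusted p = 1.24e-08). Ryr2, the calcium release channel, read 92.9, 67.5 and 49.6 intensity units on the double-positive arrays and 7.62, 6.71 and 4.25 on the double-negative arrays (log2 difference 2.82 ± 0.21 SE, adjusted p = 6.62e-07). In both the double-positive arrays lay above all double-negative arrays. The sodium-calcium exchanger gene Slc8a1 (2.97) and the L-type calcium channel gene Cacna1c (2.41) were also higher. The exception was Gja1, which codes for the gap junction protein connexin 43. Gja1 read 75.5, 61.5 and 81.3 intensity units on the double-positive arrays and 393, 386 and 432 on the double-negative arrays (log2 difference -2.41 ± 0.30 SE, adjusted p = 4.91e-05), so all double-positive arrays were lower. Among 12 genes of secreted factors and hormone receptors of heart muscle, 4 were higher (33.3%) and 1 lower (8.33%). The shares over all genes tested were 13.9% and 17.6%, and the list members higher were 2 without experiment B or C. The ligands Wnt2 (2.60) and Wnt11 (1.84) led them. The atrial natriuretic peptide gene Nppa, a marker of working heart muscle, read 9.35, 5.49 and 6.17 against 4.78, 4.56 and 4.35 and did not pass (log2 difference 0.34 ± 0.12 SE, adjusted p = 0.0511), while it passed with the experiment as a replicate block (adjusted p = 0.0198).

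Genes of oxidative metabolism were higher by smaller and more uniform amounts. Of 36 genes of oxidative phosphorylation, 33 were higher and 0 lower (0 at an unadjusted p under 0.05), with a median of 0.46. The largest were the muscle isoforms: Cox6a2, a striated muscle subunit of cytochrome oxidase, read 83.3, 89.2 and 76.2 intensity units on the double-positive arrays and 18.5, 19.4 and 17.2 on the double-negative arrays (log2 difference 1.95 ± 0.18 SE, adjusted p = 4.27e-06). After it came Slc25a4 (1.65), the heart and muscle form of the ADP/ATP carrier, which lay at -0.16 on another probe set, and the muscle oxidase subunit Cox7a1 (1.48). Subunits present in every tissue moved less, such as Atp5o (0.93) and Cox5a (0.68). Of 21 genes of the tricarboxylic acid cycle, 14 were higher and 0 lower (2 at an unadjusted p under 0.05), with a median of 0.44. Idh2, the mitochondrial isocitrate dehydrogenase, read 818, 611 and 628 intensity units on the double-positive arrays and 228, 199 and 237 on the double-negative arrays (log2 difference 1.61 ± 0.11 SE, adjusted p = 2.82e-07), and the citrate synthase gene Cs (0.92) was next. The arrays of Idh2 did not overlap, but another of its probe sets lay at 0.0080 and did not pass.

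Genes of fuel use were higher in part. Of 19 fatty acid oxidation and creatine kinase genes, 11 were higher and 0 lower (0 at an unadjusted p under 0.05), with a median of 0.40. They were led by the nuclear regulators Esrrg (2.42) and Ppargc1a (2.40), the brain-type creatine kinase Ckb (2.17) and lipoprotein lipase, Lpl (1.96). Other probe sets lay at 0.019 for Esrrg, which did not pass, and at 0.72 for Ppargc1a. Of 20 glycolysis and glucose transport genes, 10 were higher and 3 lower (median 0.42). Those higher were led by the muscle isoforms Pgam2 (3.46) and Eno3 (2.66) and by Hk1 (2.01) and Pfkp (1.84). Pgam2, the muscle phosphoglycerate mutase, read 342, 151 and 176 intensity units on the double-positive arrays and 18.3, 10.8 and 17.7 on the double-negative arrays (log2 difference 3.46 ± 0.24 SE, adjusted p = 3.37e-07), with no overlap. In the other direction stood transporters: Slc2a3, a high-affinity glucose transporter, read 1388, 756 and 1205 intensity units on the double-positive arrays and 2745, 2351 and 3039 on the double-negative arrays (log2 difference -1.32 ± 0.31 SE, adjusted p = 0.00505), and Slc16a1 (-1.36) carries lactate and pyruvate. Neither transporter passed without experiment C, nor Slc16a1 without double-negative C. The count of lower genes was 0 without experiment C and 1 without double-negative C.

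Smooth muscle genes were higher in part. Of 12 tested, 8 were higher and 0 lower (0 at an unadjusted p under 0.05), with a median of 0.60. Acta2, the smooth muscle actin that early heart muscle also expresses, read 4499, 3747 and 3526 intensity units on the double-positive arrays and 219.9, 156 and 180.1 on the double-negative arrays (log2 difference 4.38 ± 0.17 SE, adjusted p = 2.72e-09), without overlap. Its other probe sets were called higher by less, at 0.45 at the lowest. Cnn1 (2.74), Csrp1 (1.70) and Cnn2 (1.49) followed, a calponin, a LIM protein and a second calponin. Tagln, a marker of smooth muscle and of early heart muscle, read 219, 48.4 and 68.8 against 65.6, 61.2 and 62.2 and did not pass (adjusted p = 0.468), with double-positive A far above the others and a difference of -0.090 without experiment A. Summed over the 4 smooth muscle markers, of which 2 were called higher, the intensity was 3732 to 4883 on double-positive and 234 to 308 on double-negative arrays. Acta2 makes up most of that sum, Myh11, specific to mature smooth muscle, read 5.13 ± 0.156 against 5.09 ± 0.157 and was too dim to be tested, and the part of smooth muscle cells was not tested.

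Matrix and adhesion genes included some of the larger increases. Of 30 basement membrane and integrin genes, 16 were higher and 2 lower (median 0.46), led by Itgb1bp2 (1.82), Itgb3 (1.40), Itgav (1.22) and Sgca (1.16). The first codes for melusin, a muscle protein that binds integrin beta-1, the next pair for integrins beta-3 and alpha-v, and the last for a sarcoglycan of the muscle membrane. Itgb3 was higher by 0.93 without experiment A. Of 28 fibrillar collagen and matrix genes, 10 were higher (35.7%) and 3 lower (10.7%), against 13.9% and 17.6% of all genes tested. The median was 0.090, and those lower were 5 without experiment A and 1 without experiment B. Vcan, the proteoglycan versican of the cardiac jelly, read 533, 446 and 409 intensity units on the double-positive arrays and 26.1, 48.8 and 36.9 on the double-negative arrays (log2 difference 3.52 ± 0.18 SE, adjusted p = 1.99e-08). Col5a1, a fibrillar collagen chain, read 574, 366 and 374 intensity units on the double-positive arrays and 41.7, 52.3 and 62.8 on the double-negative arrays (log2 difference 2.96 ± 0.16 SE, adjusted p = 3.05e-08). Both had double-positive arrays above all double-negative ones. Of the 6 fibroblast or feeder markers, Col1a1 was higher (0.82) and Thy1 lower (-0.55), and their sums overlapped, at 105 to 190.1 against 98.5 to 134.

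Ligands of the BMP family, which induce heart muscle from mesoderm, were among the genes that were higher. Of 31 BMP and TGF-beta pathway genes, 14 were higher (45.2%) and 3 lower (9.68%), against 13.9% and 17.6% of all genes tested. The median was 0.12, with 1 lower without experiment C. Bmp5 read 125, 102 and 97.1 intensity units on the double-positive arrays and 8.40, 12.6 and 17.1 on the double-negative arrays (log2 difference 2.76 ± 0.17 SE, adjusted p = 1.01e-07). Bmp4 read 279, 191 and 175 intensity units on the double-positive arrays and 21.4, 37.1 and 52.99 on the double-negative arrays (log2 difference 2.46 ± 0.25 SE, adjusted p = 7.55e-06). The double-positive arrays of both genes lay above the double-negative arrays, with array A highest for Bmp4. Tgfb2 (1.66) and Bmp7 (1.47) were further ligands, and Bambi (1.92) is a decoy receptor that dampens the pathway. The target gene Id3 (-0.98) moved the other way, with 113, 109.9 and 161 against 249, 221 and 293, and the effector Smad1 was lower by a small amount (-0.32, not called without experiment C).

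Replication and division genes were lower in double-positive cells in the main. Of 44 DNA replication genes, 41 were lower, against 17.6% of all genes tested, and 0 higher (0 at an unadjusted p under 0.05), with a median of -0.78. Dut, which keeps uracil out of DNA, read 59.8, 59.2 and 64.9 intensity units on the double-positive arrays and 178, 179 and 178 on the double-negative arrays (log2 difference -1.48 ± 0.088 SE, adjusted p = 6.67e-08). Mcm3, a subunit of the replicative helicase, read 199, 187 and 187 intensity units on the double-positive arrays and 520.4, 423 and 475 on the double-negative arrays (log2 difference -1.29 ± 0.17 SE, adjusted p = 5.87e-05). The values of each population were tight and did not overlap. Pold1 (-1.25), Cdc6 (-1.24) and Cdt1 (-1.18) followed, a polymerase subunit and a pair of licensing factors. Of 38 mitosis and spindle genes, 32 were lower and 0 higher (0 at an unadjusted p under 0.05), with a median of -0.56. They were led by Bub1 (-1.25), Cdc20 (-1.04), Espl1 (-0.93), Ccnb2 (-0.91) and Aurkb (-0.80), which act in mitosis. Cdc20 read 195, 213 and 199.8 intensity units on the double-positive arrays and 420.2, 402 and 444 on the double-negative arrays (log2 difference -1.04 ± 0.094 SE, adjusted p = 2.96e-06).

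An inhibitor of the cycle was far higher. Cdkn1c, the imprinted inhibitor p57 of cyclin-dependent kinases, read 1893, 1999 and 2178 intensity units on the double-positive arrays and 127, 133 and 188 on the double-negative arrays (log2 difference 3.74 ± 0.20 SE, adjusted p = 2.56e-08). The difference lay at 3.85, 3.87 and 3.51 within the 3 experiments, and no other cell cycle gene of the lists was higher by as much. Of 27 cyclins D and E and cell cycle regulators, 9 were higher (33.3%) and 5 lower (18.5%), against 13.9% and 17.6% of all genes tested. The share lower was thus near that of all genes. The list median was 0.15, and those lower were 3 without experiment B and 3 without experiment C. The inhibitor Cdkn2d (1.35) and the cyclin Ccnd2 (1.31) were among those higher, and Mycl (-1.78), a Myc family gene, was lowest.

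Genes for making ribosomes were lower as well. Of 38 ribosome biogenesis and nucleolus genes, 37 were lower and 0 higher (0 at an unadjusted p under 0.05), with a median of -0.71. Lyar, a nucleolar factor abundant in stem cells, read 54.6, 53.4 and 49.03 intensity units on the double-positive arrays and 207, 193 and 179 on the double-negative arrays (log2 difference -1.80 ± 0.10 SE, adjusted p = 4.61e-08). Dkc1, the pseudouridine synthase dyskerin, read 85.4, 78.02 and 71.95 intensity units on the double-positive arrays and 179, 205 and 182 on the double-negative arrays (log2 difference -1.22 ± 0.11 SE, adjusted p = 3.93e-06). Neither gene had overlapping arrays, and Heatr1 (-1.20), Ddx18 (-1.12) and Nop58 (-1.11) followed. The ribosomal proteins themselves differed less: of 34 cytosolic ones 15 were lower and 0 higher (0 at an unadjusted p under 0.05), with a median of -0.19. Those lower were 7, 8 and 5 without experiments A, B and C, and 9 without double-positive B or double-negative C. Their pseudogenes and near copies share probes, so single members are uncertain.

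Pluripotency genes were lower in the larger part. Of 21 core pluripotency factors, 13 were lower, 2 higher and 6 not called (median -0.87). Sox2, a partner of Oct4, read 8.72, 5.97 and 7.25 intensity units on the double-positive arrays and 133, 118 and 100.1 on the double-negative arrays (log2 difference -3.40 ± 0.20 SE, adjusted p = 7.82e-08). Dppa5a, an RNA-binding protein of stem cells, read 30.4, 31.2 and 41.2 intensity units on the double-positive arrays and 442, 758 and 627 on the double-negative arrays (log2 difference -3.98 ± 0.18 SE, adjusted p = 9.20e-09). In each the double-negative arrays were higher throughout. L1td1 (-3.57), Utf1 (-2.93) and Nanog (-2.79) were further members. Utf1 lay at 0.16 on another probe set, and the double-positive values of Nanog and L1td1 lay below the highest array median of 6.73, so their differences depend on the pseudocount. That of Nanog lay between -3.74 and -2.47 with other pseudocounts. Summed over the 6 pluripotent cell markers, all called lower, the intensity was 96.2 to 116 on the double-positive and 1427 to 1701 on the double-negative arrays.

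The pluripotency factors that were higher were Tdgf1 and Klf4. Tdgf1, the Nodal co-receptor Cripto, which is known both from pluripotent cells and from cardiac progenitors, read 221, 169 and 186 intensity units on the double-positive arrays and 50.2, 65.1 and 63.5 on the double-negative arrays (log2 difference 1.62 ± 0.21 SE, adjusted p = 6.37e-05). Its double-positive arrays were the higher ones in each experiment. Klf4 was higher by 0.88, a call lost without double-positive B or C, without any 1 double-negative array, without experiment B or C (0.92 and 0.73), with no filter on level (adjusted p = 0.0641) and with the intensity trend and robust option (adjusted p = 0.0761). The kinase gene Pim2 (-3.47), the hormone precursor gene Trh (-3.18), the epiblast growth factor gene Fgf5 (-3.15) and the lipid phosphatase gene Mtm1 (-3.85) completed the largest decreases together with the epithelial genes below. Mtm1 read 68.4, 35.3 and 58.5 intensity units on the double-positive arrays and 1006, 706 and 735 on the double-negative arrays (log2 difference -3.85 ± 0.34 SE, adjusted p = 2.59e-06).

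Genes of DNA methylation and chromatin were lower in part. Dnmt3b, a de novo DNA methyltransferase, read 76.6, 54.1 and 82.4 intensity units on the double-positive arrays and 891, 1019 and 736 on the double-negative arrays (log2 difference -3.57 ± 0.25 SE, adjusted p = 2.68e-07). Of 14 DNA methylation and demethylation genes, 7 were lower, 1 higher and 6 not called (median -0.27), and Dnmt3l (-1.82), Uhrf1 (-1.08) and Tet1 (-0.95) followed Dnmt3b. The related enzyme Dnmt3a did not pass (-0.084, 95% interval -0.31 to 0.14, and 0.42 on another probe set), and the 1 gene that was higher was Mbd2 (0.98), a reader of methylated DNA that lay at -0.091 on another probe set. Of 10 germ line genes, 6 were lower and 1 higher, led by Ifitm3 (-2.44) and Ifitm1 (-2.23), and the 1 higher gene was Mov10l1 (1.54), a helicase gene with a cardiac isoform. Of 40 chromatin remodelling and Polycomb genes, 15 were lower, 6 higher and 19 not called (median -0.16). Phc1, a Polycomb subunit, read 81.7, 74.9 and 84.3 intensity units on the double-positive arrays and 293, 266 and 239 on the double-negative arrays (log2 difference -1.68 ± 0.10 SE, adjusted p = 1.11e-07), and Cbx7 (-1.55) and Cbx1 (-0.99) were next. The genes higher were led by Smarcd3 and by the histone deacetylase gene Hdac9 (1.33), known from muscle. The arrays of Phc1 did not overlap.

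Epithelial genes were mostly lower. Of 29 epithelial junction and keratin genes, 21 were lower and 3 higher, with a median of -1.08. Epcam, an adhesion molecule of epithelia and stem cells, read 26.2, 13.3 and 28.6 intensity units on the double-positive arrays and 372, 333 and 347 on the double-negative arrays (log2 difference -3.78 ± 0.36 SE, adjusted p = 5.25e-06). Cdh1, E-cadherin, read 6.76, 4.09 and 8.61 intensity units on the double-positive arrays and 106, 111 and 119 on the double-negative arrays (log2 difference -3.48 ± 0.34 SE, adjusted p = 6.14e-06). The double-positive values of Cdh1 were near or below the array medians, while its double-negative values were 106 to 119. The 4 epithelium markers, all called lower, summed to 194 to 365 against 1391 to 1946. Another probe set of Epcam lay at 0.072. Cldn7 (-3.06), Cldn6 (-2.90) and Esrp1 (-2.82) are tight junction claudins and an epithelial splicing factor. The classical counterpart, N-cadherin of heart and mesoderm, differed in the other direction: Cdh2 read 337, 212 and 257 intensity units on the double-positive arrays and 39.2, 32.9 and 39.3 on the double-negative arrays (log2 difference 2.70 ± 0.15 SE, adjusted p = 3.05e-08). The 3 epithelial list members that were higher, Pkp2 (1.58), Dsp (1.55) and Jup (1.03), the last named after its value was seen, code for plakophilin 2, desmoplakin and plakoglobin, parts of the desmosome that heart muscle also uses. Pkp2 read 262, 182 and 199 intensity units on the double-positive arrays and 73.6, 55.98 and 77.3 on the double-negative arrays (log2 difference 1.58 ± 0.20 SE, adjusted p = 4.64e-05). All double-positive arrays of Pkp2 were above the double-negative ones, another probe set lay at 0.19 and did not pass, and Wfdc2 (-3.23), a secreted epithelial protein gene, was among the 15 largest decreases.

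Markers of primitive erythroid cells had the lowest median of the marker lists of other cell types (-4.10 over 4 genes). Hbb-y read 3.66, 3.75 and 5.47 intensity units on the double-positive arrays and 197, 108 and 174 on the double-negative arrays (log2 difference -4.25 ± 0.18 SE, adjusted p = 6.88e-09). Hba-x read 21.9, 17.7 and 33.6 intensity units on the double-positive arrays and 438, 288 and 612 on the double-negative arrays (log2 difference -3.95 ± 0.31 SE, adjusted p = 8.24e-07). Both are embryonic globin genes, and their double-negative arrays varied among themselves but stayed above all double-positive arrays. The heme synthesis gene Alas2 (-0.61) was the remaining one of 4 genes lower among 12 blood genes tested. These were 33.3% of the blood list, against 17.6% of all genes tested. In that list 0 genes were higher (0 at an unadjusted p under 0.05) and 8 were not called, with a median of -0.15. The double-positive values of Alas2 (4.84, 5.71 and 5.32) lay below the array medians. The erythroid factor Klf1 did not pass (-0.054, 95% interval -0.32 to 0.21). Summed over the 4 measured erythroid markers the intensity was 51.7 to 98.95 against 1062 to 1953.

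Endothelial genes showed few calls in either direction. Of 23 tested, 1 was higher (4.35%), Lmo2 (1.56), and 1 lower (4.35%), Sox17 (-1.04), against 13.9% and 17.6% of all genes tested. The call of Sox17 was lost without experiment C or without double-negative A, and the list median was 0.059. With the experiment as a replicate block and only the 6 arrays, 5 were higher and 3 lower. The 6 endothelial markers summed to 183 to 264 on double-positive and 119 to 214 on double-negative arrays, 0 of them called (0 at an unadjusted limma p under 0.05). Kdr, a receptor of early mesoderm and endothelium, averaged 145 ± 27.9 against 108 ± 35.6 (95% interval -0.31 to 1.22, adjusted p = 0.00905 with the replicate block and 6 arrays), and Pecam1 9.72 ± 0.203 against 11.3 ± 2.22 (95% interval -0.57 to 0.27).

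Endoderm, neural and other lineage lists were lower in part, and their counts depended on single arrays. Of 25 endoderm genes 7 were lower (28.0%, against 17.6% of all genes tested) and 2 higher (median -0.58), the latter being Gata6 and Gata4, which the heart shares. The genes lower were 1 without experiment C and 11 without experiment A. They were 3 without double-negative A, where the median was -0.32, and 4 without double-negative C or double-positive B or C. With the experiment as a replicate block they were 13. Foxa2 (-1.47), an endoderm and midline factor, lost its call without experiment C. Of 17 neural genes 9 were lower and 0 higher (1 at an unadjusted p under 0.05), with a median of -0.24, 5 of them without double-positive A or without experiment B. Otx2, a factor of epiblast and forebrain, read 16.99, 18.2 and 21.3 intensity units on the double-positive arrays and 166, 132 and 130.2 on the double-negative arrays (log2 difference -2.68 ± 0.33 SE, adjusted p = 4.76e-05), and Hesx1 (-1.75), Nnat (-1.27) and Zic5 (-1.19) followed. Of 17 primitive streak and nascent mesoderm genes 4 were lower (23.5%, against 17.6% of all genes tested) and 0 higher (0 at an unadjusted p under 0.05). The median of this list was -0.023, and 2 were lower without experiment C. Fgf5 (-3.15), Foxa2 (-1.47) and Eomes (-1.43) led those lower, and the early mesoderm gene Mesp1 lay at -0.079 (95% interval -0.23 to 0.072). Over the endoderm markers the summed intensity was 86.99 to 163 against 173 to 539.8, with 2 of 6 called lower, and over the neural ones 121 to 149 against 105 to 148, with none of the 3 tested called (1 at an unadjusted limma p under 0.05). Summed marker intensities of macrophages, trophoblast and neural crest were 25.7 to 26.3, 33.2 to 39.1 and 36.2 to 39.4 on double-positive and 26.3 to 30.4, 36.2 to 40.2 and 43.3 to 45.4 on double-negative arrays. The part of any of these cell types in the results was not tested.

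**Figure D3:**
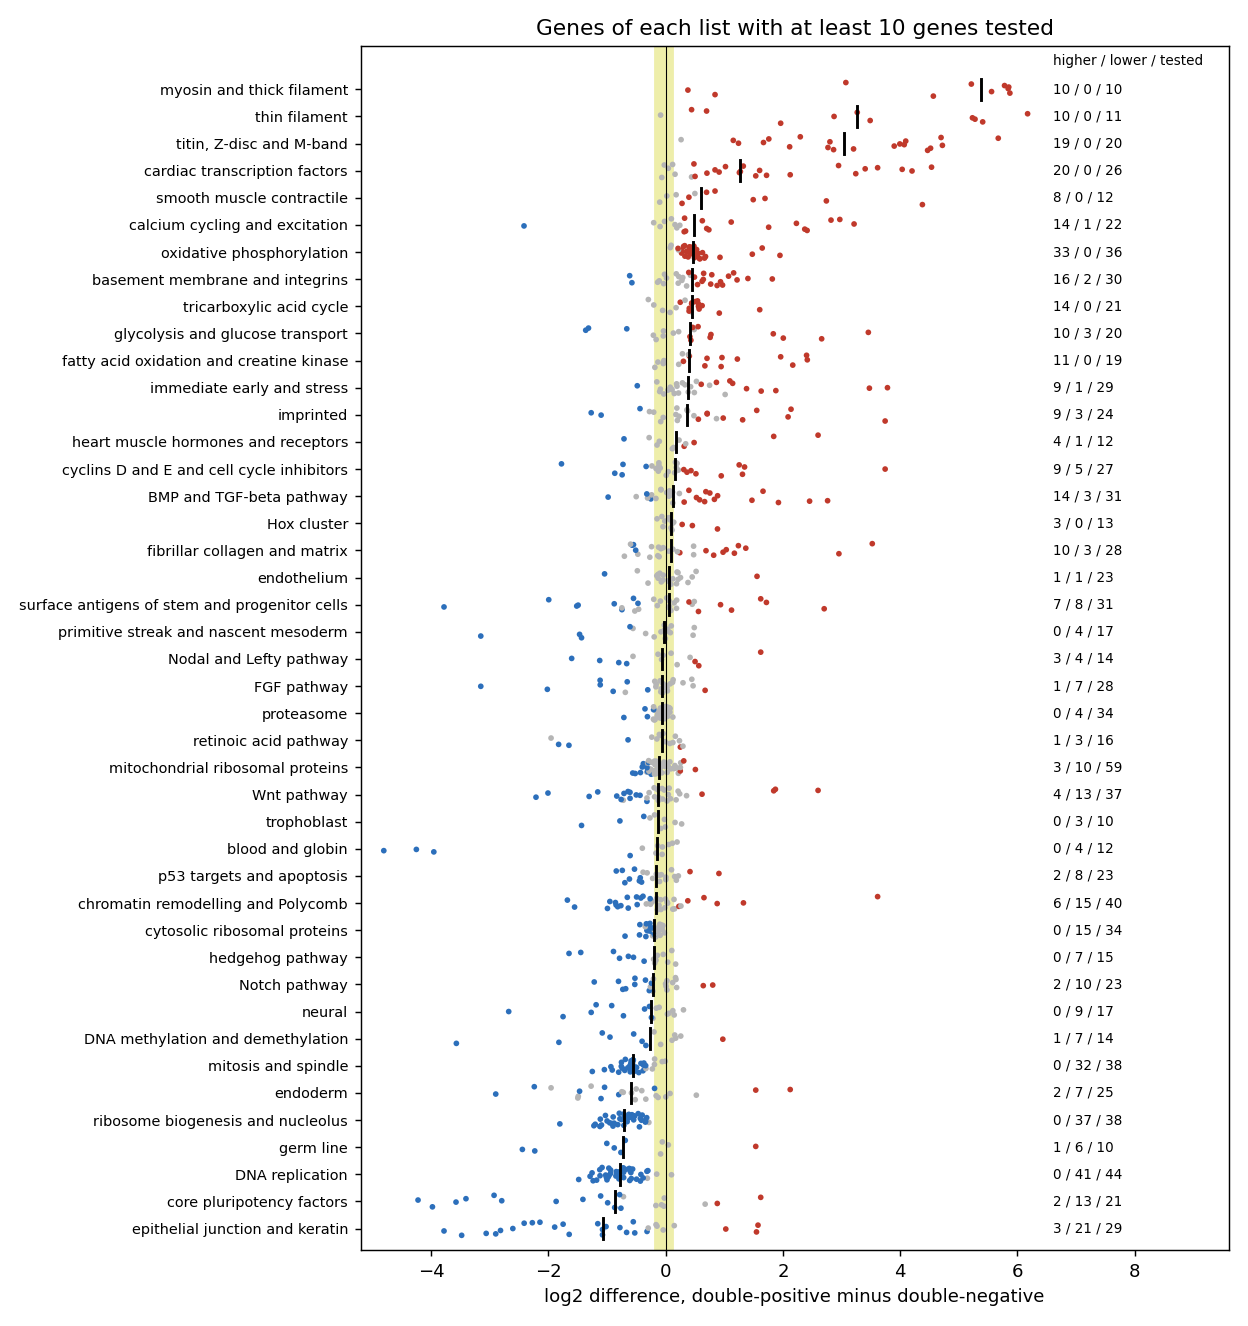
Each point is a gene of the list named at the left, placed by its log2 difference between double-positive and double-negative cells and coloured red where called higher, blue where called lower and grey where not called. The black line is the median of the list, the band spans the middle 50% of all genes tested, and the numbers at the right count genes higher, lower and tested. Sarcomere lists lie at the top, with a median of 5.39 for the thick filament, and epithelial genes at the bottom with -1.08.

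The 3 experiments gave similar differences of unequal size. The differences within an experiment, each from 1 double-positive and 1 double-negative array, correlated across genes at 0.904 for A and B, 0.900 for A and C and 0.917 for B and C. Of the 1906 genes called higher, 1011 had their largest difference in experiment A, 620 in B and 275 in C, with median differences of 0.63, 0.56 and 0.47. Of the 2411 called lower, 997, 656 and 758 had theirs in A, B and C. Bmp4 was an example of a gene highest in A, with differences of 3.47, 2.24 and 1.65, as was the small heat shock gene Hspb1 at 2.26, 0.99 and 0.90 and the matrix gene Tgfbi at 2.04, 0.76 and 0.93. Dlk1, an imprinted Notch-like ligand gene, had its smallest in A (0.59, 1.94 and 1.41). Double-positive A is the array with the highest actin ratio and 18S control, and their part was not tested.

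**Figure D4:**
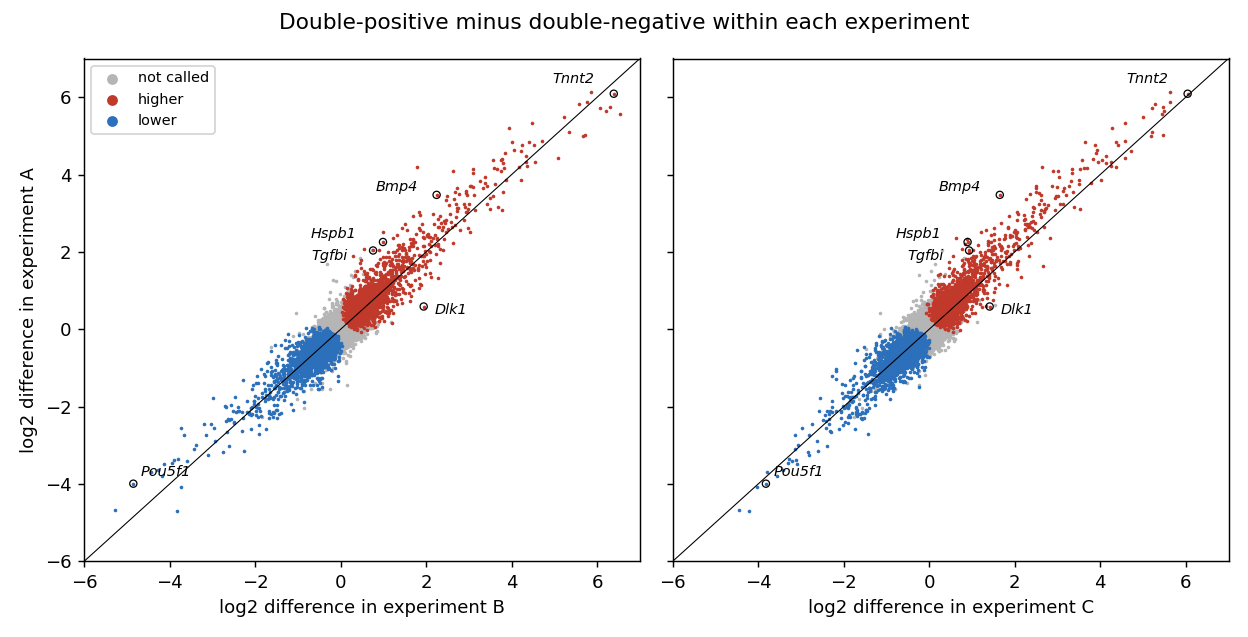
Each point is a gene, with its log2 difference between double-positive and double-negative cells in experiment A on the vertical axis and in experiment B (left) or C (right) on the horizontal axis, coloured by its call. Most called genes lie near the line of equal differences, with Bmp4 above it at 3.47 in A against 2.24 in B and 1.65 in C, and Dlk1 below it.

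The red-only and green-only populations place some of these genes, as levels without a test. Tnnt2 ranged over 247 to 384 on the red-only and 741 to 920.0 on the green-only arrays, between the double-negative and the double-positive arrays. Pou5f1 was low in both populations, at 14.1 to 28.1 and 16.95 to 28.04, close to its double-positive arrays. Tdgf1 ranged over 21.2 to 38.4 and 48.8 to 83.4 on them, so every other array of the series lay below its double-positive arrays (169 to 221). Gja1 was lowest in double-positive cells, with 159 to 171 in red-only and 171 to 521 in green-only cells, where array A was the high one. Slc2a3 had green-only arrays of 2239 to 4395, which overlap the double-negative ones (2351 to 3039), while red-only arrays at 486 to 989 overlap the double-positive ones. Nnat, an imprinted gene of the neural and imprinted lists, was lower in double-positive cells (log2 difference -1.27 ± 0.16 SE, adjusted p = 4.61e-05), and its red-only arrays were the highest of all, at 1413 to 2246.

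**Figure D5:**
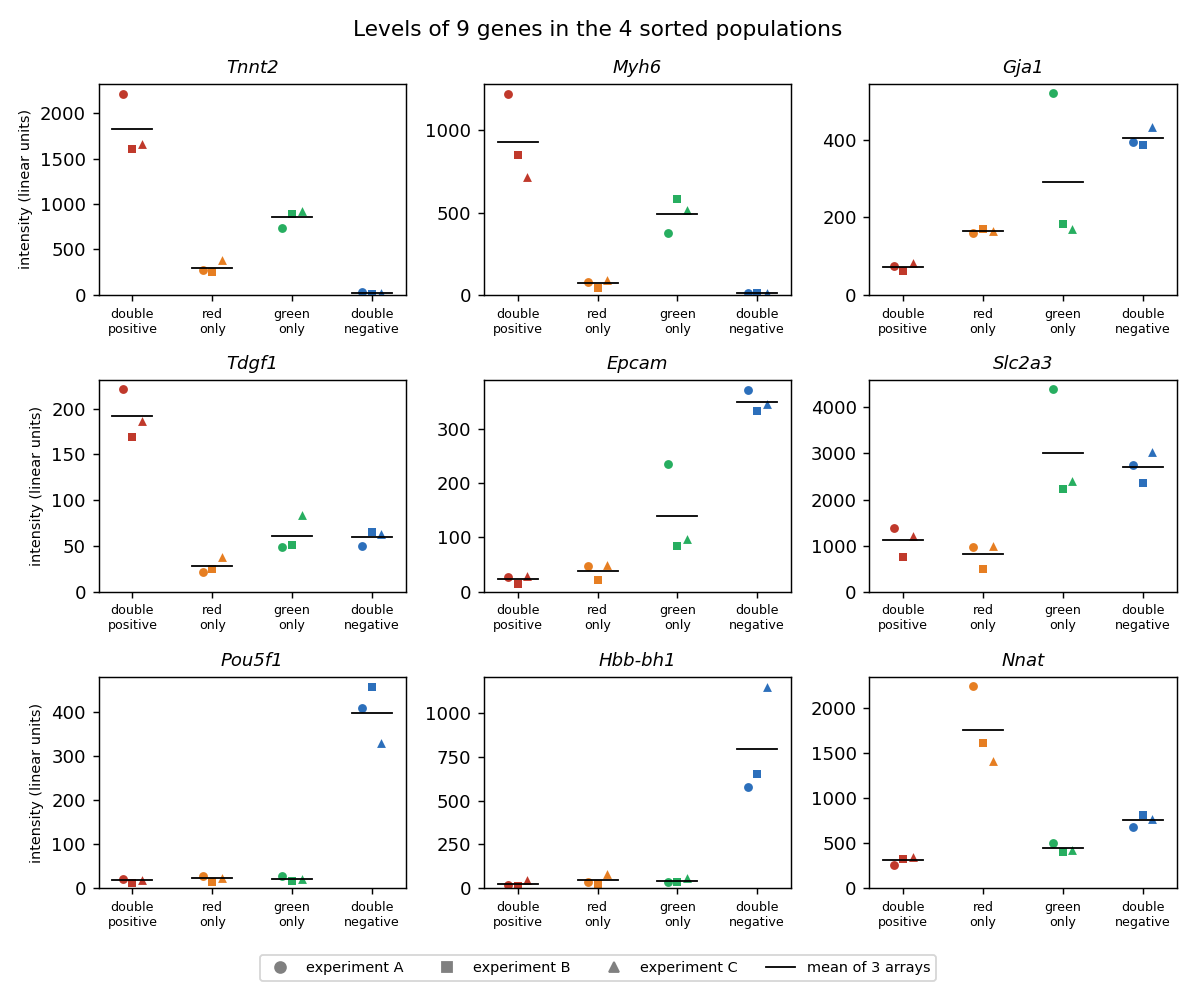
Intensity in linear units of 9 genes in the 4 sorted populations, with a point for each array, a symbol for each experiment and a line at the mean of 3 arrays. Tdgf1 is highest on the 3 double-positive arrays (169 to 221), Pou5f1 and Hbb-bh1 are high on the double-negative arrays alone, and Nnat is highest on the red-only arrays (1413 to 2246).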

How the data were processed

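Gene expression was measured on 12 single-colour Affymetrix mouse arrays, 3 for each of 4 sorted populations, from 5 ug of total RNA each, per the labels' protocols. The authors deposited 1 linear intensity per probe set and array. The submitters' processing notes name MAS5, without a version or scaling. There are no detection calls, the lowest value is 2.09, array medians ran from 6.29 to 6.73, and the number of arrays limits the precision. Sample titles gave the groups, because the sort protocol in the labels prints 1 population wrongly.

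Of 45101 probe sets, 64 controls, 932 with several genes and 9160 with none were left out. The other 34945 name 1 gene in the platform annotation, with symbols updated through Entrez gene IDs apart from 204, and cover 18193 genes. For a gene with several probe sets the one with the highest average log2 value was taken. The 25th percentile of intensity (4.10) was added before log2 was taken, and no further normalization was applied. Genes whose mean fell below the 40th percentile (3.22 as log2) were dropped, leaving 13698. limma 3.58.1 in R 4.3.3 (lmFit, eBayes) was fitted to all 12 arrays with 1 mean per population and 8 residual degrees of freedom. Tests were two-sided, adjusted by Benjamini-Hochberg over all genes tested, at a threshold of 0.05. An exact permutation test of 3 arrays against 3 cannot go below p = 0.1. The fit was tested on simulated data, and plots were made in matplotlib 3.10.9 (Python 3.11.15).

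Genes were named by a rule: the 4 marker genes, 3 reporter-linked genes, the 15 largest changes on each side without overlap and with 1 sign in each experiment, up to 5 of the largest called members of each list, up to 2 that moved against it, and the 3 smallest adjusted p on each side. Fixed cell type markers and genes named because of their value were added. Members and lists were chosen with earlier results of these data known, so lists are described by counts and medians with no test. Experiment letters pair the samples: deviations from group means correlated at 0.214, 0.259 and 0.137 between the double-positive and double-negative arrays of experiments A, B and C, and at 0.116 to 0.424 over all 18 pairs of arrays of one letter. The alternatives were the experiment as a replicate block, other pseudocounts, quantile normalization, other filters, other uses of probe sets, an intensity trend, only the 6 arrays, a 2-fold minimum, and the omission of single arrays and of whole experiments.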

Additional observations from a re-analysis of the deposited data

How the results depend on the processing

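The count of genes higher was 1829 to 1977 and that of genes lower 2234 to 2495 with other pseudocounts, quantile normalization, other filters, averaged probe sets, an intensity trend with limma's robust option, or only the 6 arrays. The paired fits, with the experiment as a replicate block, called 2165 and 2703 with all 12 arrays and 2119 and 2710 with 6. They lost no call of the 164 called genes named here, and changed no call of a named gene apart from those given above. Each probe set on its own gave 2959 and 3652 of 23232 probe sets, and a test against a minimum of 2-fold 177 and 79. Leaving out arrays or experiments gave 1231 to 1715 and 1402 to 2172. Of the called genes named here 131 kept their call in each setting but the minimum fold. On another probe set of the gene the difference had the opposite sign for Dnmt3a (0.42), Epcam (0.072), Itgav (-0.0093), Mbd2 (-0.091), Slc25a4 (-0.16), Smyd1 (-0.0027), Utf1 (0.16). Other reversals were of genes not called: Dnmt3a from -0.19 to 0.0059 over the settings that leave out arrays; Dnmt3a with the mean of its probe sets (0.21); Klf1 from -0.23 to 0.17 over the settings that leave out arrays; Tagln from -0.12 to 0.93 over the settings that leave out arrays. The cause was not tested. Counts of list genes under each setting and fold counts without the pseudocount were added after seeing the data. The calls follow signal: 8.55% of the genes in the dimmest of 4 equal bins by level were called and 52.3% in the brightest.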

Other observations

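Signalling pathways other than BMP changed gene by gene. Of 37 Wnt pathway genes 4 were higher (10.8%) and 13 lower (35.1%), against 13.9% and 17.6% of all genes tested, with a median of -0.14. Those lower were 7 without experiment B, 5 without experiment C and 7 without double-positive B or double-negative C. Besides Wnt2 and Wnt11, the noncanonical ligand Wnt5a (1.87) was higher, and the secreted antagonist gene Sfrp2 was lower (7.01 ± 0.303 against 40.5 ± 1.12; log2 difference -2.01 ± 0.079 SE, adjusted p = 3.69e-09). Of 15 hedgehog pathway genes 7 were lower and 0 higher (0 at an unadjusted p under 0.05), from the ligand Shh (-1.45) to the receptor Ptch1 (-1.65), itself a target of the pathway, and the transducer Smo (-0.89). Ptch1 read 54.4, 42.8 and 46.8 intensity units on the double-positive arrays and 155, 149 and 173 on the double-negative arrays (log2 difference -1.65 ± 0.27 SE, adjusted p = 0.000389), and the arrays did not overlap, but neither of its other probe sets passed (highest -0.081). Of 23 Notch pathway genes 10 were lower and 2 higher. Those lower were 6 without experiment A, 5 without experiment B and 6 without double-positive A or double-negative B. The receptor genes Notch2 (-1.22) and Notch3 (-0.80) were lower and the ligand gene Jag2 (0.80) higher. Of 28 FGF pathway genes 7 were lower and 1 higher, 4 and 3 lower without experiments B and C, with the ligands Fgf5 (-3.15) and Fgf15 (-2.02), the feedback inhibitor Spry1 (-1.12) and the receptor Fgfr1 (-1.11) in front. The 1 that was higher was Fgf10 (0.67), a ligand known from the second heart field. Of 16 retinoic acid pathway genes 1 was higher (6.25%) and 3 were lower (18.75%), against 13.9% and 17.6% of all genes tested. Those lower included Cyp26a1 (-1.82) and Crabp2 (-1.65), which degrade and carry the ligand. Of 14 Nodal pathway genes 3 were higher (21.4%) and 4 lower (28.6%), 2 lower without experiment C, with Lefty1 (-1.60) lowest and the co-receptor Tdgf1 highest.

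Imprinted genes were higher for 9 (37.5%) and lower for 3 (12.5%) of 24 tested (median 0.37), against 13.9% and 17.6% of all genes tested. After Cdkn1c came Slc38a4 (2.14), Igf2r (2.09), Plagl1 (1.55) and Dlk1 (1.31). The first is an amino acid transporter gene, the second codes for the receptor that clears insulin-like growth factor 2, and the third for a zinc finger factor. Igf2r read 890.2, 486 and 659 intensity units on the double-positive arrays and 158, 139 and 158 on the double-negative arrays (log2 difference 2.09 ± 0.19 SE, adjusted p = 3.46e-06), without overlap. Of 13 Hox genes tested 3 were higher (23.1%) and 0 lower (0 at an unadjusted p under 0.05). Those higher were 1 without experiment B or C, with Hoxa5 (0.88) in front. Of 31 surface antigens of stem and progenitor cells 7 were higher (22.6%) and 8 lower (25.8%), with a median of 0.052. Those lower were 4 without experiment C. The called members include Cdh2 (2.70) and Nrp1 (1.72), an N-cadherin and a co-receptor for semaphorins and VEGF, and Prom1 (-1.99), which codes for CD133. Of 23 p53 target and apoptosis genes 8 were lower (34.8%) and 2 higher (8.70%), with Sesn2 (-0.84) lowest. Those lower were 4 without experiment B and 5 without double-positive C. Of 59 mitochondrial ribosomal protein genes 3 were higher and 10 lower (median -0.12), a lower share of 16.9% against 17.6% of all genes tested. Those lower were 4 without experiment C and 5 without double-positive C, and with the experiment as a replicate block 6 were higher and 17 lower. Those higher were 1 without experiment A or B. Of 34 proteasome genes 4 were lower (11.8%, against 17.6% of all genes tested), 1 without experiment C, and Psma7 (-0.71) differed most. Of 10 trophoblast genes 3 were lower (30.0%) and 0 higher (0 at an unadjusted p under 0.05). Of 7 paraxial mesoderm and skeletal muscle genes 2 were lower (28.6%) and 0 higher.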
